A study of Mus musculus with 4 samples.

Results

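The miR-15/16 seed family was examined as 8 miRNA hairpins from 4 loci: Mir15a and Mir16-1, Mir15b and Mir16-2, Mir195a and Mir497, and Mir322 and Mir503. They were chosen by gene symbol in the GENCODE M21 annotation, and all 8 were found, each as 1 row, among the 2022 annotated miRNA transcripts of a table of 141239 features. Small RNA had been sequenced from RAW264.7, a mouse macrophage-like cell line, and from the extracellular vesicles that the line released. The cells expressed a short hairpin RNA, either shDis3l2, directed at the exonuclease gene Dis3l2, or shNS, a non-silencing control, and every culture received doxycycline at 1 µg per mL. The groups were vesicles with the label shDis3l2, vesicles with the label shNS, cells with the label shDis3l2 and cells with the label shNS, with 1 library each. Medium was changed after 3 days to one with vesicle-depleted bovine serum, and vesicles were collected over 24 h, purified on a sucrose gradient and treated with micrococcal nuclease. By the protocol, cells and vesicles of a label came from the same flasks, so a label and a culture cannot be told apart.

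A miRNA is cut from a hairpin precursor, and bases 2 to 8 of the mature strand, the seed, direct it to matching sites in mRNAs. The miR-15/16 family is known for restraining the cell cycle and survival through targets such as the cyclins Ccnd1 and Ccne1 and the anti-apoptotic gene Bcl2. Mir15a and Mir16-1 lie in the Dleu2 gene, whose human counterpart is deleted in many chronic lymphocytic leukaemias. Mir322 is the mouse counterpart of human miR-424 and is made with Mir503 from an X-linked cluster that is associated with differentiation and cell cycle exit.

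The mature 5p sequences show what the members share and where they differ. They are from RefSeq (GRCm38.p6), 5′ to 3′, with the seed in capitals, and entries were found for all 8 symbols.
miR-16-5p (Mir16-1 and Mir16-2): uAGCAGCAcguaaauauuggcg
miR-15a-5p: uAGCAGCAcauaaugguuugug
miR-15b-5p: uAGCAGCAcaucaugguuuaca
miR-195a-5p: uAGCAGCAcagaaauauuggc
miR-497a-5p: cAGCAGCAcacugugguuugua
miR-322-5p: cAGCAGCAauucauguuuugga
miR-503-5p: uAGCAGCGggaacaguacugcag
Every one but miR-503-5p had the seed AGCAGCA, and miR-503-5p had AGCAGCG. After base 8, miR-195a-5p was identical to miR-16-5p at 11 of 13 positions, miR-15a-5p at 8 of 14, miR-15b-5p at 6 of 14, miR-322-5p and miR-503-5p at 5 of 14, and miR-497a-5p at 4 of 14. Among 1738 mature mouse entries of that table, 11 carried AGCAGCA and 1 carried AGCAGCG at bases 2 to 8. The 4 hairpins outside the family with that seed, Mir6342, Mir6353, Mir6419 and Mir195b, together had 1 count in the 4 libraries.

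The hairpins Mir16-1 and Mir16-2 give the same 5p miRNA, which limits what their separate counts mean. Their sequences are shown with their longest shared stretch in capitals.
Mir16-1: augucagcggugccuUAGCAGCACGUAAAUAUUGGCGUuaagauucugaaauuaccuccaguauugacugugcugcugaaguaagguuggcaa
Mir16-2: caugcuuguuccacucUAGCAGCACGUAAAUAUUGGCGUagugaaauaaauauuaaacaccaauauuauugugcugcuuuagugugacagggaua
The shared stretch is 23 nt and holds the whole 22-nt miR-16-5p. A read of that arm fits both hairpins, so the 5p part of the counts of Mir16-1 and Mir16-2 cannot be divided by sequence. Their 3p sequences differ and each occurred in 1 listed transcript, but a count covers both arms and the share of 3p reads is not known. The mature 5p and 3p sequences of the other 6 members each occurred in 1 listed transcript, that of the member itself.

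The 4 loci lie apart in GRCm38. Mir15a and Mir16-1 span positions 61631880 to 61632110 of chromosome 14 on the minus strand, in an intron of the long noncoding gene Dleu2, although 1 short Dleu2 transcript ends inside Mir16-1. Mir15b and Mir16-2 span 69009772 to 69009996 of chromosome 3 on the plus strand in an intron of Smc4, which encodes a condensin subunit. Mir497 and Mir195a span 70234717 to 70235135 of chromosome 11 on the plus strand, where the antisense hairpin Mir497b overlaps Mir497 and had at most 18 counts in a library. Mir503 and Mir322 span 53053984 to 53054349 of chromosome X on the minus strand, and with Mir351, Mir542, Mir450-2, Mir450-1 and Mir450b they form a cluster that ends at position 53047997. The annotation lists no host transcript for the chromosome 11 and X loci. Host counts were small: all listed transcripts of Dleu2 over Mir16-1 had 18 and 20 counts in vesicles and 74 and 37 in cells, and those of Smc4 had 150 and 216 in vesicles and 101 and 44 in cells, labels shDis3l2 and shNS in that order.

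Depth was 17612856 to 19741041 estimated counts per library. miRNA hairpins took 1854287 and 3477466 of them in vesicles (labels shDis3l2 and shNS) and 11273350 and 13480443 in cells. Levels below are CPM, with the summed miRNA counts of the library as the denominator, and intervals are exact 95% intervals that cover counting error only. In cells the count of the targeted gene was higher, not lower, with the label shDis3l2. Dis3l2 had 13232 counts in the cell library labelled shDis3l2, against 42 in the cell library labelled shNS. It had 1894 and 1713 counts in the vesicle libraries of those labels. Of its 6 listed transcripts, 1 of the nonsense-mediated decay class held 13209 counts in cells labelled shDis3l2, 20 in cells labelled shNS, and 1807 and 1632 in vesicles labelled shDis3l2 and shNS, so the check rests on that transcript and does not measure Dis3l2 mRNA as a whole. The source of the reads on that transcript was not tested, so the count does not tell whether the knockdown worked or whether the labels are right. Libraries are therefore named by their labels, and directions between labels rest on them. Of 5 macrophage miRNAs, Mir142, Mir146, Mir155 and Mir21a were present in every library, and Mir223 was listed at 0 while its host F630028O10Rik had 8742 to 152898 counts. Of markers of other sources, erythroid and serum miRNAs summed to 228 and 246 CPM in vesicles and 0.266 and 0.668 CPM in cells, the liver miRNA Mir122 had 87.9 and 35.9 CPM in vesicles and 13.1 and 9.79 CPM in cells, and epithelial miRNAs had sums of 157 and 100.4 CPM in vesicles and 64.4 and 40.3 CPM in cells. Muscle miRNAs summed to at most 18.3 CPM and neuronal ones to at most 1.08 CPM.

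Most of the family counts in each library were those of miR-16. The 8 hairpins held 14.4% of miRNA counts in the vesicle library labelled shDis3l2, 14.5% in the vesicle library labelled shNS, 16.3% in the cell library labelled shDis3l2 and 13.7% in the cell library labelled shNS. Mir16-1 had 254413 and 468296 counts in vesicles with the labels shDis3l2 and shNS, and 1709618 and 1688202 counts in cells. It ranked 1 among all miRNA hairpins in each library, and the other 7 members together made up 5.05% and 6.88% of the family in vesicles and 7.14% and 8.90% in cells. Mir16-2 had 287 and 420 counts in vesicles and 1469 and 1597 in cells, so Mir16-1 had 886 to 1164 times as many counts as its copy. Since the 5p arms are identical, this ratio does not measure how much miR-16-5p each copy gave, and the level of miR-16-5p is read from the sum of both copies.

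**Figure D1:**
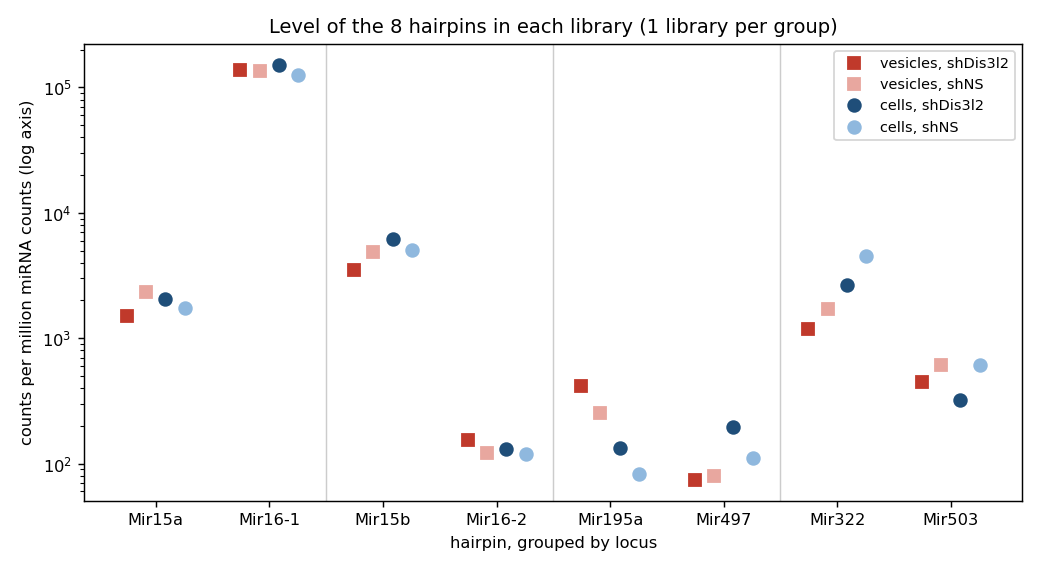
CPM over the miRNA total (log axis) of the 8 hairpins, grouped by locus, with 1 point per library and no replicates. Mir16-1 lies above all other members in each library, Mir195a is higher in both vesicle libraries than in both cell libraries, and Mir322 is lower in both.

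Below Mir16-1 the order of the members differed between vesicles and cells. In both vesicle libraries the order of counts was Mir15b, Mir15a, Mir322, Mir503, Mir195a, Mir16-2 and Mir497. In cells Mir322 stood above Mir15a under both labels, and Mir195a stood below Mir497. Dividing by hairpin length kept each order except that Mir497 passed Mir16-2 in the cell library labelled shNS. Neighbours in the order were apart beyond counting error except for Mir503 and Mir195a in vesicles labelled shDis3l2 (828 and 773 counts), Mir195a and Mir16-2 in cells labelled shDis3l2 (1498 and 1469 counts), and Mir16-2 and Mir497 in cells labelled shNS (1597 and 1500 counts).

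The shares of the family counts held by each locus do not depend on how libraries are scaled. The Mir15a/Mir16-1 locus held 96.0% and 94.7% in vesicles with the labels shDis3l2 and shNS, and 94.1% and 92.4% in cells, with the miR-16-5p reads that were assigned to Mir16-1 counted there. The Mir15b/Mir16-2 locus held 2.53% (95% interval 2.48 to 2.59) and 3.44% (3.39 to 3.49) in vesicles, and 3.85% (3.83 to 3.88) and 3.75% (3.72 to 3.78) in cells. The Mir322/Mir503 locus held 1.13% and 1.61% in vesicles, and 1.83% and 3.74% in cells, so its share in the cell library labelled shNS stood well above the other 3 libraries. The Mir195a/Mir497 locus held 0.340% and 0.231% in vesicles and 0.201% and 0.141% in cells, the reverse of the X-linked order.

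**Figure D2:**
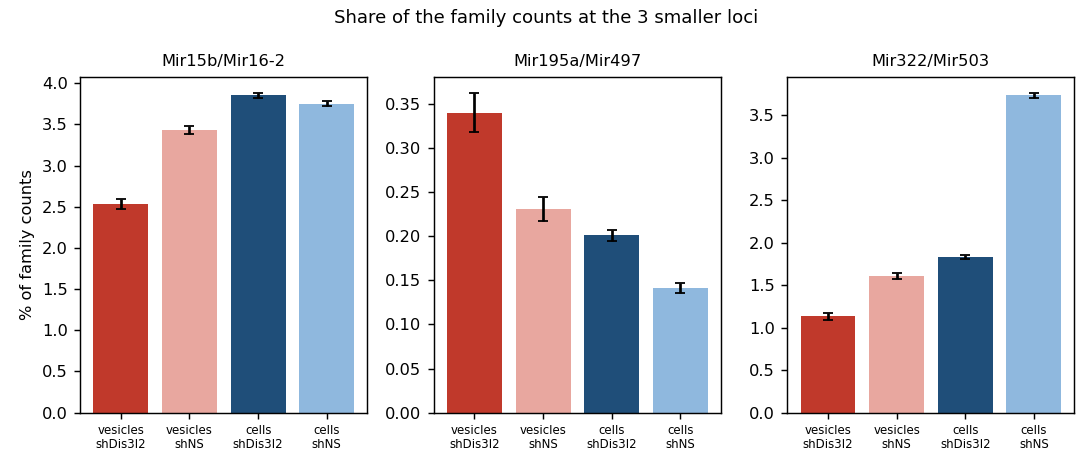
Share of the family counts (%) at the 3 smaller loci in each library, with bars starting at 0 and error bars for exact 95% binomial intervals (counting error only, 1 library per group). The Mir322/Mir503 share was 3.74% in cells labelled shNS and 1.83% in cells labelled shDis3l2, while the Mir195a/Mir497 share was highest in vesicles labelled shDis3l2.

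The first comparison asked how the family differs between cells labelled shDis3l2 and shNS. The X-linked locus was lower with the label shDis3l2 and the other 3 loci were higher in CPM. Mir322 had 2672 CPM in cells labelled shDis3l2, against 4523 CPM in cells labelled shNS, a log2 ratio of -0.76 (95% interval -0.78 to -0.74). Mir503 had 322 CPM, against 613 CPM with the label shNS, a log2 ratio of -0.93 (-0.98 to -0.87). Both stayed below 0 under each scaling tried.

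The same direction held at the X-linked hairpins outside the family. Mir351, a miR-125-related hairpin, had 343 CPM in cells labelled shDis3l2 and 690 CPM in cells labelled shNS (log2 -1.01). Mir542 had 454 CPM with the label shDis3l2 and 672 CPM with the label shNS (log2 -0.57), and Mir450b had 51.8 and 81.5 CPM with those labels (log2 -0.65). Mir450-2 was at -1.16 from 73 counts with the label shDis3l2 and 196 with the label shNS, and the 95% interval of Mir450-1, from 39 and 54 counts, included 0 (-0.84 to 0.41). The cluster of 7 hairpins summed to 43433 counts with the label shDis3l2 and 88955 with the label shNS in cells, a log2 ratio of -0.78.

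Outside chromosome X the 6 members lay between 0.14 and 0.81. Mir16-1 had 151651 CPM in cells labelled shDis3l2 and 125233 CPM in cells labelled shNS (log2 0.28), Mir15b had 6162 and 5038 CPM with those labels (log2 0.29), and Mir15a had 2047 and 1743 CPM (log2 0.23). These abundant members had similar ratios, and the Mir15b/Mir16-2 locus differed from the Mir15a/Mir16-1 locus by 0.01 on the log2 scale (-0.00 to 0.03). Most counts of the latter locus were those of Mir16-1, so this value mainly sets Mir15b against miR-16. The intervals of Mir15b (0.28 to 0.31) and Mir15a (0.21 to 0.26) did not overlap. Mir497 had the highest ratio, with 195 CPM in cells labelled shDis3l2 and 111 CPM in cells labelled shNS (log2 0.81, 0.72 to 0.91), followed by its neighbour Mir195a with 133 and 82.7 CPM (log2 0.68). Mir16-2 was at 0.14, and at -0.02 when all features set the scale.

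Relative to the Mir15a/Mir16-1 locus, Mir322/Mir503 was 2.08-fold lower in cells labelled shDis3l2 than in cells labelled shNS (log2 -1.05, -1.07 to -1.04), and Mir195a/Mir497 was 1.40-fold higher (log2 0.48, 0.41 to 0.56). The family sum was at 0.25 (0.09 to 0.38 over the scalings tried). The median of the 8 members was 0.25, against 0.03 for the 206 hairpins that reached 100 counts in the 2 cell libraries together. Of the members, 6 of 8 stood above the median of all hairpins, which a change of scale cannot alter because it moves every hairpin alike. With a limit of 2-fold and an interval that excludes 1, 0 of 8 members were apart, against 16.5% of all hairpins, 7.28% higher (15 hairpins) and 9.22% lower (19 hairpins). The hairpins past that limit numbered 10 higher and 22 lower when all features set the scale, and 18 higher and 13 lower once the 5 most abundant hairpins were taken out of it. Scaled to all features, 1 member, Mir503, was also past it, on the lower side.

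**Figure D3:**
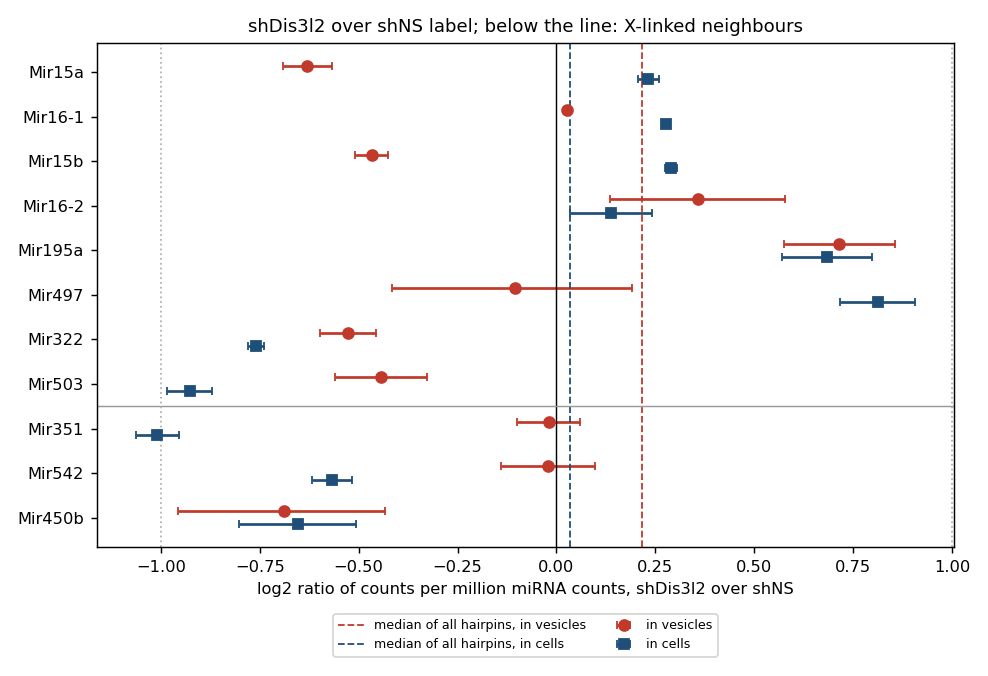
Log2 ratios (shDis3l2 over shNS label) of CPM in vesicles and in cells for the 8 members and, below the grey line, 3 X-linked neighbours with at least 100 counts in every library. Error bars are exact 95% intervals for counting error, dotted lines mark 2-fold and dashed lines the median of all hairpins. In cells, Mir322 and Mir503 lie left of 0 with their neighbours while the other 6 members lie right of it; in vesicles, Mir15a and Mir15b also lie left of 0.

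Vesicles of the 2 labels were compared next. Mir15a and Mir15b, higher with the label shDis3l2 in cells, were lower with that label in vesicles. Mir15a had 1499 CPM in vesicles labelled shDis3l2, against 2320 CPM in vesicles labelled shNS, a log2 ratio of -0.63 (-0.69 to -0.57). Mir15b had 3508 CPM, against 4847 CPM with the label shNS, a log2 ratio of -0.47 (-0.51 to -0.43). Both ratios were below 0 under each scaling.

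For miR-16 the direction depended on the scale. Mir16-1 had 137203 CPM in vesicles labelled shDis3l2 and 134666 CPM in vesicles labelled shNS (log2 0.03), and this ratio was -0.32 under TMM, -0.31 under DESeq2 scaling and -0.83 scaled to all features. The ratio of Mir16-1 to Mir15a counts was 91.5 (88.16 to 95.03) in vesicles labelled shDis3l2 and 58.0 (56.8 to 59.3) in vesicles labelled shNS, against 74.1 and 71.9 in cells. Mir15b and Mir15a, whose reads do not overlap with those of another member, stood at a ratio of 2.34 and 2.09 in vesicles and 3.01 and 2.89 in cells.

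In vesicles too, the X-linked locus was lower and Mir195a higher in CPM with the label shDis3l2. Mir322 had 1193 CPM with the label shDis3l2 and 1721 CPM with the label shNS in vesicles (log2 -0.53), and Mir503 had 447 and 607 CPM (log2 -0.44), below 0 under each scaling. Their neighbours Mir351 and Mir542 did not differ beyond counting error (log2 -0.02 each), and Mir450b was at -0.69. Mir195a had 417 CPM in vesicles labelled shDis3l2 and 254 CPM in vesicles labelled shNS (log2 0.72), a ratio that turned to -0.15 when scaled to all features. Mir497, with 137 counts under the label shDis3l2 and 277 under the label shNS, was at -0.11 (-0.41 to 0.19), and Mir16-2 at 0.36, or -0.50 scaled to all features.

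In vesicles Mir322/Mir503 was 1.44-fold lower with the label shDis3l2 relative to the Mir15a/Mir16-1 locus (log2 -0.52), Mir15b/Mir16-2 was 1.37-fold lower (log2 -0.46), and Mir195a/Mir497 was 1.45-fold higher (log2 0.54). Mir16-1 held 254413 of the 257193 counts of that reference locus with the label shDis3l2, and 468296 of 476364 with shNS. These ratios are therefore mainly ratios to miR-16, whose 5p reads cannot be divided between 2 of the loci. Relative to Mir15a alone, Mir15b was not lower with the label shDis3l2 (count ratios 2.34 with that label and 2.09 with shNS). The median of the members was -0.27, against 0.22 for 195 hairpins, and 2 of 8, Mir16-2 and Mir195a, stood above that median (1 of 8 with host transcripts added to the hairpin counts). The interval of Mir16-2 (0.14 to 0.58) held that median. The members past 2-fold were 0 of 8, against 23.6% of all hairpins, 17.4% higher (34 hairpins) and 6.15% lower (12 hairpins). That split was 19 higher and 22 lower under TMM, 20 and 22 under DESeq2 scaling, 7 and 50 scaled to all features, and 77 and 11 once host transcripts were counted in; scaled to all features, 4 members were past 2-fold, all lower. Over both compartments in 1 additive fit (edgeR quasi-likelihood test, 1 residual degree of freedom, Benjamini-Hochberg adjustment over 255 hairpins), 0 of 8 members passed for the label, with 0 at an unadjusted p under 0.05, and 9.02% of all hairpins passed, 3.92% higher and 5.1% lower. Each group has 1 library, so the residual of this fit is how far the label ratio differs between vesicles and cells. A label ratio that differs between compartments therefore counts as noise in the fit. Cells and vesicles of a label also share their flasks, so these p-values measure no spread between like libraries or between cultures. DESeq2 also called 0 members, with 3 at an unadjusted p under 0.05. Mir322 had the smallest adjusted p of the members in both tools, 0.368 in edgeR at a log2 change of -0.66 and 0.152 in DESeq2 at -0.67, and its ratio was negative in both compartments.

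The third comparison set vesicles against cells. Mir322, Mir497 and Mir15b fell in vesicles in the additive fit, and Mir195a went the other way. Mir322 had 1193 and 1721 CPM in vesicles with the labels shDis3l2 and shNS, against 2672 and 4523 CPM in cells, and log2 ratios of vesicles to cells of -1.16 (-1.23 to -1.10) and -1.39 (-1.43 to -1.36). Both vesicle libraries lay below both cell libraries. The edgeR quasi-likelihood test gave it an adjusted p of 8.22e-07 at a log2 change of -1.94.

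Mir497 had 73.9 and 79.7 CPM in vesicles, against 195 and 111 CPM in cells (adjusted p = 0.00326 in edgeR, log2 change -1.60). Mir15b had 3508 and 4847 CPM in vesicles, against 6162 and 5038 CPM in cells (adjusted p = 0.00836 in edgeR, log2 change -1.10). For both, the vesicle libraries lay below the cell libraries, by a small margin for Mir15b with the label shNS (log2 ratio -0.06). These fitted changes are on the TMM scale, where the median of all hairpins between vesicles and cells was -0.54 with the label shDis3l2 and -0.18 with the label shNS, against 0.50 and 0.44 in CPM. With the miRNA total alone as the scale, Mir497 and Mir15b no longer passed and Mir195a did.

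Mir195a had 417 and 254 CPM in vesicles, against 133 and 82.7 CPM in cells, 3.14-fold and 3.07-fold higher with the labels shDis3l2 and shNS. Both vesicle libraries lay above both cell libraries. These log2 ratios of 1.65 and 1.62 turned to -0.89 and -0.22 when all features set the scale, and the edgeR adjusted p was 0.0686 at a log2 change of 0.97. Erythroid and serum miRNAs, of which Mir451a and Mir144 had 157 to 477 counts in the vesicle libraries and 0 to 5 in the cell libraries, moved in the same direction, as did Mir122. Mir486, the third of that list, was at 0 and 3 counts in vesicles and 0 in cells. Their part in the level of Mir195a was not tested.

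The order of Mir195a and Mir497 within their locus differed between vesicles and cells. Mir195a had 5.64 (4.70 to 6.82) and 3.19 (2.78 to 3.66) times the counts of Mir497 in vesicles with the labels shDis3l2 and shNS, and 0.680 (0.637 to 0.727) and 0.743 (0.687 to 0.804) times in cells. Per nucleotide of hairpin these ratios were 5.04 and 2.85 in vesicles and 0.608 and 0.664 in cells. Mir322 had 2.67 and 2.83 times the counts of Mir503 in vesicles, against 8.29 and 7.37 times in cells. Mir322 also stood lower in vesicles against Mir351 and Mir542. It had 1.13 and 1.61 times the counts of Mir351 in vesicles and 7.79 and 6.55 times in cells, and 2.48 and 3.52 times those of Mir542 in vesicles and 5.89 and 6.73 times in cells. These ratios within a library do not depend on its scale. Relative to the Mir15a/Mir16-1 locus, Mir322/Mir503 was at -0.72 and -1.25 on the log2 scale in vesicles against cells with the labels shDis3l2 and shNS, Mir15b/Mir16-2 at -0.63 and -0.16, and Mir195a/Mir497 at 0.73 and 0.67. Most counts of that reference locus were those of Mir16-1. Mir15b had 2.34 and 2.09 times the counts of Mir15a in vesicles and 3.01 and 2.89 times in cells.

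**Figure D4:**
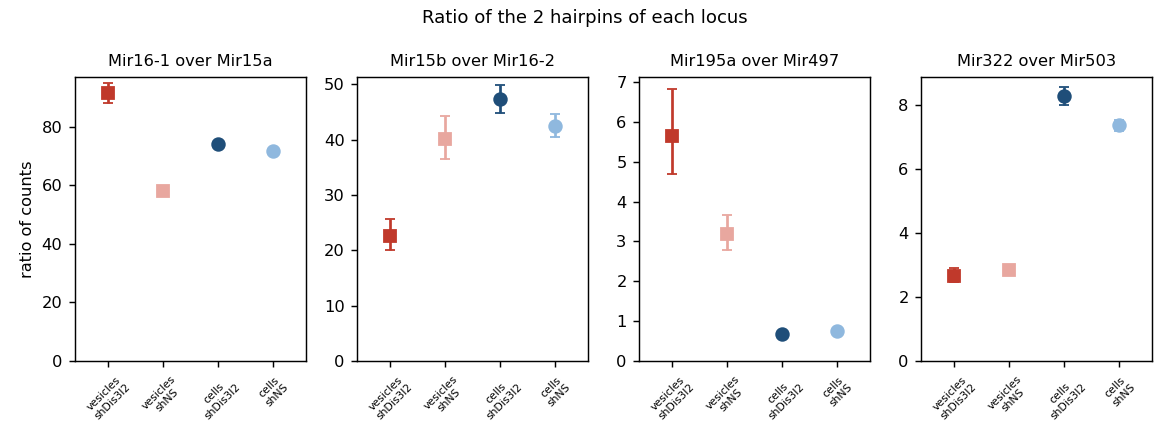
Ratio of the counts of the paired hairpins of each locus in the 4 libraries, with error bars for exact 95% intervals (counting error only) and linear axes from 0. Mir195a exceeds Mir497 in vesicles (5.64 and 3.19) and lies below it in cells (0.680 and 0.743), and Mir322 over Mir503 is 2.67 and 2.83 in vesicles and 8.29 and 7.37 in cells.

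In CPM the remaining members lay within 2-fold of cells under both labels, as did Mir15b. Mir503 had 447 and 607 CPM in vesicles, against 322 and 613 CPM in cells, with log2 ratios of 0.47 and -0.01, and the first was below 0 under TMM, under DESeq2 scaling and when scaled to all features. Mir16-1 was at -0.14 with the label shDis3l2 and at 0.10 with the label shNS, and Mir15a at -0.45 and 0.41. The 2 positive values became negative under those 3 scalings. Mir16-2 was at 0.25 and 0.03, both negative under them. On the TMM scale with the label shDis3l2, Mir15a was at -1.49 and Mir16-1 at -1.18, both past 2-fold, with Mir16-2 at -0.79 and Mir503 at -0.57. With the label shNS none of these was past 2-fold on that scale.

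Among the X-linked neighbours, Mir351 had 1057 and 1071 CPM in vesicles, against 343 and 690 CPM in cells (log2 1.62 and 0.63), and Mir542 had 482 and 489 CPM, against 454 and 672 CPM (log2 0.09 and -0.46). With TMM scaling Mir351 was at 0.46 over both labels in the edgeR fit (adjusted p = 0.362).

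Most members stood below the median of all hairpins in vesicles against cells. The median of the 8 members was -0.30 with the label shDis3l2 and 0.01 with the label shNS, against 0.50 over 206 and 0.44 over 210 hairpins. For each label 1 of 8 members, Mir195a, stood above the median of all hairpins, and 1 of 8 did with host transcripts added. A change of scale moves every hairpin alike, so it cannot alter this standing. With the label shDis3l2, 1 member was at least 2-fold higher (Mir195a) and 2 were lower (Mir322 and Mir497), against 46.6% of all hairpins, 37.4% higher and 9.22% lower. With the label shNS, 1 was higher (Mir195a) and 1 lower (Mir322), against 40.5% of all hairpins, 33.8% higher and 6.67% lower. The split of all hairpins followed the scale: it was 77 higher and 19 lower with the label shDis3l2, or 50 and 72 under TMM, 49 and 83 under DESeq2 scaling and 33 and 145 scaled to all features. With the label shNS it was 71 and 14, or 49 and 41, 44 and 57, and 29 and 135 in the same order. In the additive fit 3 of 8 members were called, all lower, against 40.8% of all hairpins called, 16.1% lower and 24.7% higher.

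**Figure D5:**
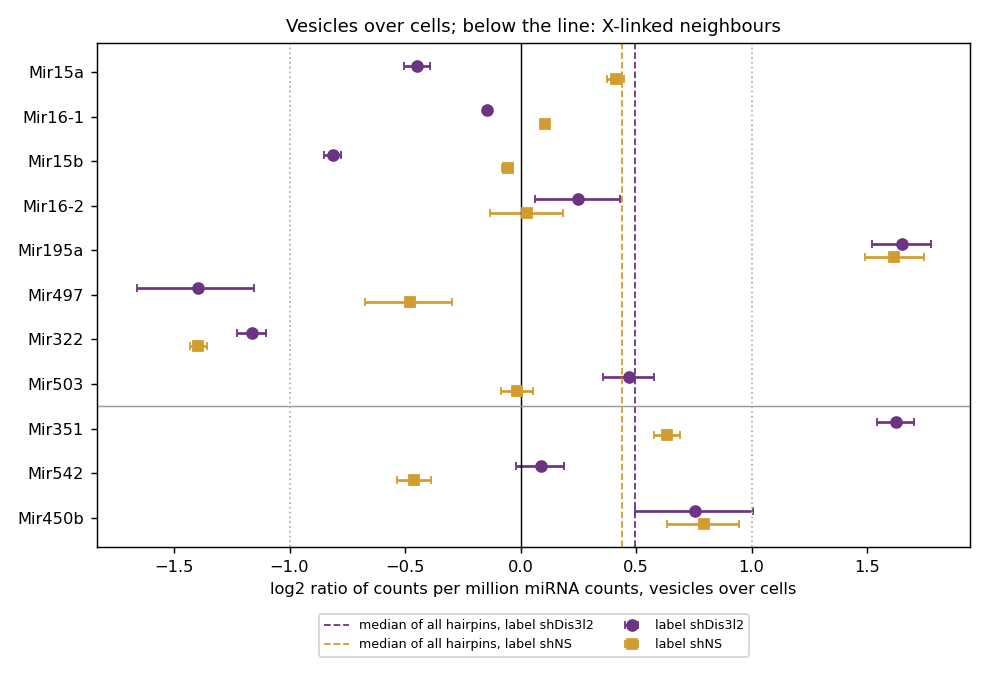
Log2 ratios (vesicles over cells) of CPM under each label for the 8 members and, below the grey line, 3 X-linked neighbours with at least 100 counts in every library. Error bars are exact 95% intervals for counting error, dotted lines mark 2-fold and dashed lines the median of all hairpins (0.50 and 0.44). Mir195a lies near 1.6 under both labels, and the other 7 members lie left of the dashed line of their label. The intervals of Mir503 (label shDis3l2) and Mir15a (label shNS) reach that line.

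The hairpins with the profiles nearest to those of the members are given next. Over 139 hairpins with at least 100 counts in each of the 4 libraries, likeness was the largest absolute difference between centred log2 CPM profiles. Mir16-1 was nearest to Mirlet7c-2 (0.05), Mir374b (0.08) and Mir93 (0.10). Mir15a was nearest to Mir32 (0.19), Mir15b to Mir190a (0.22), Mir16-2 to Mir128-1 (0.11), Mir322 to Mir210 (0.16) and Mir503 to Mir182 (0.10). Mir195a and Mir497 had looser matches, Mir345 (0.29) and Mir5099 (0.28). For 0 of the 8 members was another member among the 3 nearest hairpins. How often that holds for 8 hairpins taken at random from the 139 was not worked out, so the count is not read as a result about the family.

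Fragments of target and processing mRNAs were counted in the same libraries and are given as CPM of all counts. Of 12 targets, 8 had at least 100 counts over the cell libraries. Ccnd3 (cyclin D3) was at least 2-fold higher with the label shDis3l2, from 70 and 36 counts, and Ccnd2 (cyclin D2; 38 and 93 counts) and Vegfa (an angiogenic factor; 41 and 113 counts) lower, against 14.5% of genes higher and 4.56% lower. Bcl2 had 119 CPM in cells labelled shDis3l2 and 149 CPM in cells labelled shNS (log2 -0.33). In vesicles 10 targets were measured and 0 were past 2-fold between labels, against 10.6% higher and 1.88% lower.

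Between vesicles and cells most mRNA fragments were higher in vesicles, 78.6% and 76.5% of genes with the labels shDis3l2 and shNS, with 11.4% and 12.1% lower. Of the targets, 8 of 10 measured were higher and 2 lower with the label shDis3l2, and 6 of 9 higher and 1 lower with the label shNS. E2f3, a cell cycle transcription factor, was 29.3-fold and 15.2-fold higher, in that order of labels, and Ccnd1 8.97-fold and 5.83-fold higher. Bcl2 was 26.0-fold and 40.8-fold lower, with 80 and 66 counts in vesicles and 2187 and 2943 in cells, where 1 of its 2 transcripts held 2164 and 2919 of them. Among 11 genes of miRNA processing, 6 were measured between labels in cells, with 0 past 2-fold, against 19.0% of genes in either direction. In vesicles 10 were measured and 1 was past 2-fold, against 12.5% of genes: Ago1 was higher with the label shDis3l2, from 111 counts with that label and 4 with shNS. Between vesicles and cells 9 of 9 measured were higher with the label shDis3l2 and 7 of 7 with the label shNS, at medians of 2.30 and 2.25 on the log2 scale, against 2.45 and 2.22 for all genes. Ago2, the slicing Argonaute, was 14.2-fold and 7.54-fold higher in vesicles than in cells. A short fragment of an mRNA does not measure the level of the whole transcript.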

How the data were processed

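The authors deposited 1 table of estimated counts per transcript for 4 libraries, made, per the submitters' processing notes, with cutadapt, Salmon and Novoalign on GRCm38 and mm10. Small RNA was prepared with a QIAseq miRNA kit and sequenced as 50-nt reads, per the labels' protocols. Versions and any collapsing of reads to molecules are not given in the sources used here. Of the values above 0, 6.56% were whole within 0.001. Values were rounded to whole counts. A count covers both arms of a hairpin.

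Columns were matched to libraries by library name. Log2 ratios of CPM over the miRNA total used a pseudocount of 0.5 counts and exact conditional (Clopper-Pearson) 95% intervals; intervals of ratios between loci used the normal approximation on the log scale. Comparisons of 2 libraries have no test. Additive fits of compartment and label used edgeR 4.0.16 with TMM factors, with DESeq2 1.42.0 as an alternative (R 4.3.3). They took hairpins whose counts reached 100 in the 4 libraries together. The edgeR fit was tested on simulated data with a fixed dispersion and no compartment effect, which do not give its error rate in these libraries. The text names all members, their hosts, X-linked neighbours, hairpins with the same seed, fixed target and processing lists, and the 3 hairpins with the nearest profile, of which 1 or 3 are printed per member. Members and lists were chosen with earlier results of these data known, and ratios within loci were added after the values were seen.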

Additional observations from a re-analysis of the deposited data

Results flagged for a closer look

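In 3 members an effect had opposite directions in the groups compared, with both intervals excluding 0, and the difference itself was not tested because each group has 1 library. Mir15a was lower with the label shDis3l2 in vesicles and higher with it in cells (log2 ratios -0.63 and 0.23), a difference of -0.86. Seen the other way, its vesicle-to-cell ratio was -0.45 with the label shDis3l2 and 0.41 with the label shNS, the same difference of -0.86. Mir15b was likewise at -0.47 in vesicles and 0.29 in cells between labels, a difference of -0.76. The vesicle-to-cell ratio of Mir16-1 was -0.14 with the label shDis3l2 and 0.10 with the label shNS, a difference of -0.25. Over 166 hairpins measured in both comparisons between labels, the difference had a median of 0.11 and ran from -0.54 at the 10th to 1.04 at the 90th percentile. The label contrast in vesicles kept Mir15a and Mir15b below 0 under each scaling, whereas the 0.41 of Mir15a and the 0.10 of Mir16-1 turned negative under TMM, under DESeq2 scaling and when scaled to all features.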

How the results depend on the processing

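Ratios between the 4 loci stayed within counting error with a pseudocount of 5 counts and with host transcripts added, the 2 alternatives run for them. Neither could move them much. No member gained counts from a host transcript, and 5 counts are small beside locus sums of 910 counts or more. Results in CPM did move with the scale. The family sum between labels in cells (0.25) was 0.32 under TMM, 0.29 under DESeq2 scaling, 0.091 scaled to all features and 0.38 without the 5 most abundant hairpins. In vesicles (-0.00) it was -0.35, -0.34, -0.86 and -0.012 under the same 4 scales. For vesicles against cells with the label shDis3l2 (-0.18) it was -1.21, -1.37, -2.72 and -0.27, and -0.19 with host transcripts added; with the label shNS (0.07) it was -0.55, -0.74, -1.76 and 0.12, and 0.067 with host transcripts. With all features as the scale, the members past 2-fold numbered 1 between labels in cells (0 otherwise), 4 between labels in vesicles (0), 7 for vesicles against cells with the label shDis3l2 (3) and 7 with the label shNS (2); TMM factors and DESeq2 size factors gave 5 in the comparison with 3. Mir195a between vesicles and cells reversed to -0.89 and -0.22 with all features as the scale. Of 192 values of single members under 6 alternatives, 84 stayed within their interval and 24 changed sign. Count minimums of 10 and 1000 and summing the miR-16 copies left the number of members past 2-fold within 1.5 times.

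In the additive fits 0 members were called for the label under each alternative. For all hairpins, edgeR called 23 for the label, 12 without TMM factors, 15 without a minimum and 1 with host transcripts added, and for the compartment 104, or 163 with a minimum of 10 counts and 180 with host transcripts. DESeq2 called 4 members for the compartment, adding Mir195a (adjusted p = 0.00976). The labels give no replicate numbers to use as a block; cells and vesicles of a label are paired by the label term of the additive fit. A count of 0 allows up to 1.62 and 0.863 CPM in vesicles and 0.266 and 0.223 CPM in cells, with a floor of 3 counts.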
